A study of Mus musculus with 21 samples.

Results

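Proteasome subunit genes were followed in cells of the mouse line C3H/10T1/2, mesenchymal progenitors derived from an embryo, that expressed histone H2B with 1 glutamate replaced by lysine (K) or glutamine (Q). The substitutions were E71K, E71Q, E76K, E76Q, E113K and E113Q, and cells with wild-type H2B (WT) were the controls. Each of the 7 groups held 3 libraries of total RNA, 21 in all, and the deposited table gives TPM, a transcript level corrected for length and scaled to a fixed total per library, so sequencing depth is unknown. All groups share the parental line, and the labels do not say how the H2B gene was introduced, whether endogenous H2B remained or whether a genotype is 1 clone, so a difference between lines cannot be told apart from the substitution. Members were the genes with a symbol of the form Psma, Psmb, Psmc, Psmd, Psme, Psmf or Psmg plus a number and an average TPM of 1 or more across the 21 libraries. Of 48 such symbols among 24091 genes, 45 qualified, all of them among the 12192 genes tested. The 3 below the limit were Psmb8 with a mean of 0.600 TPM, Psmb11, the thymus-specific catalytic subunit, with 0.0643 TPM and Psma8, a germ-cell alpha subunit, with 0.0315 TPM. The 3 members nearest above it were Psmd9 (14.8 TPM), Psmf1 (17.4 TPM) and Psmg3 (25.9 TPM).

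The proteasome degrades proteins marked with ubiquitin. Its barrel-shaped core has outer rings of alpha subunits and inner rings of beta subunits, some of which carry the cutting sites, and a regulatory particle made of a base with ATPases and a lid binds, unfolds and feeds in substrates. In cells exposed to interferon the cutting subunits Psmb5, Psmb6 and Psmb7 can be replaced by Psmb8, Psmb9 and Psmb10, which gives the immunoproteasome, known for making peptides for major histocompatibility complex (MHC) class I molecules. The same signal raises the cap proteins Psme1 and Psme2, which open the core without ATP.

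The libraries had uneven composition. A single short RNA, Mir6236, took between 2.19% of TPM in E113K replicate 3 and 30.6% in E71K replicate 2, with 21.2% in E71Q replicate 1. Because TPM has a fixed sum, this share moves every other value. On the log2 scale the median member of E71K replicate 2 lay 0.39 below WT, beside -0.3 for all tested genes. That of E71Q replicate 1 lay 0.36 below, beside -0.19 for all tested genes. After the median-ratio rescaling described below, these member medians were -0.04 and -0.14. E71K replicate 3, with 2.35% Mir6236, had the lowest such median, -0.29. The part of Mir6236 in these values was not tested. Proteasome genes together took 0.506% (E71K replicate 2) to 0.731% (WT replicate 3) of TPM. Along the main axis of differences within groups, E71K replicate 3, E71Q replicate 1, E76K replicate 3 and E113Q replicate 3 lay apart from their mates. The summed level of 7 mesenchymal markers was 7330 to 11200 TPM in every group, although Thy1, a fibroblast surface marker, was lower in E71K (-5.96), E71Q (-5.12) and E76Q (-5.51) than in WT on the log2 scale. Of 9 immune markers the T cell gene Cd3e was listed at 0 in all libraries; the summed level was 5.79 to 7.6 TPM in E71K, 2.97 to 6.85 TPM in E71Q, 86.9 to 371 TPM in E76K, 14.8 to 20.8 TPM in E76Q, 10.5 to 10.9 TPM in E113K, 9.27 to 17.9 TPM in E113Q and 75.3 to 89.3 TPM in WT. Whether replicates were grown as separate cultures is not stated, so p-values measure the spread between these libraries, which may be technical. Of 4 epithelial markers Epcam was at 0 in all libraries of 6 groups, and the summed level was 2.04 to 4.33 TPM in E71K, 0.622 to 1.55 TPM in E71Q, 1.08 to 1.5 TPM in E76K, 0.896 to 1.37 TPM in E76Q, 0.761 to 0.873 TPM in E113K, 2.67 to 4.11 TPM in E113Q and 10.6 to 12.3 TPM in WT. The 2 abundant enough to test, Cdh1 and Krt8, were called lower in all 6 mutants, and the part of these markers in the proteasome differences was not tested. In such bulk RNA, fewer cells expressing a gene and less of its RNA per cell cannot be told apart.

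Among the 45 members, which leave out the lid gene Sem1 described below, core genes were the most abundant class on the TPM scale, which corrects for length. The 14 genes of the constitutive core had means over all libraries between 88.1 TPM for Psma3, an alpha-ring subunit, and 401 TPM for Psmb1, a beta subunit without a cutting site; the highest alpha-ring mean was that of Psma7 (270.3 TPM), the lowest non-cutting beta mean that of Psmb2 (174 TPM), and the cutting subunits ran between 184 TPM for Psmb6 and 308 TPM for Psmb7. Genes of the regulatory particle were more even, with 17 means between 83.5 TPM for Psmd11 of the lid and 206 TPM for Psmc5, one of the ATPases of the base. Psmc4 was the lowest ATPase (98.4 TPM), Psmd1 and Psmd2 marked the ends of the other base genes (106 and 191 TPM), and Psmd7 was the highest lid gene (164 TPM). The immunoproteasome genes Psmb9 and Psmb10 lay far lower, at 29.0 and 30.2 TPM, and among the caps Psme4, a large activator found mainly in nuclei, had the lowest mean (31.4 TPM) and Psme2 the highest (214 TPM). Assembly chaperones ranged between 14.8 TPM for Psmd9 and 87.3 TPM for Psmg4. In 27 of the 45 genes the highest group mean was less than 1.5 times the lowest. It was more than 2 times the lowest in 6 genes, namely Psmb9 (5.1-fold), Psme1 (3.61-fold), Psme2 (2.69-fold), Psmb10 (2.53-fold), Psmd2 (2.13-fold) and Psma1 (2.06-fold). Psma2, another alpha-ring subunit, had the narrowest span, 1.14-fold.

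**Figure D1:**
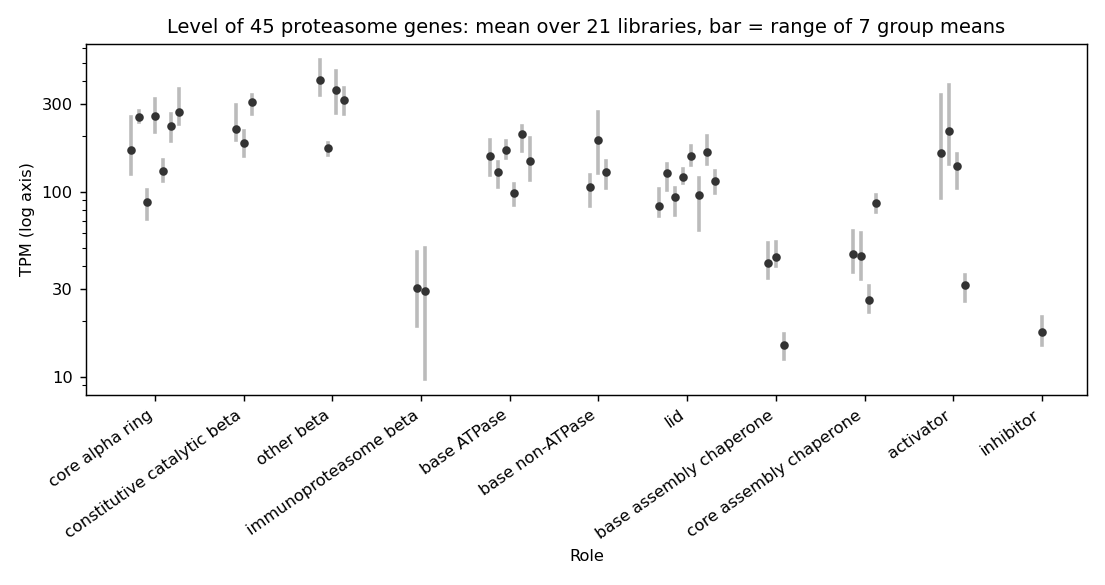
Mean TPM of the 45 proteasome genes over 21 libraries (points, log axis), arranged by role, with grey bars that span the lowest to the highest of the 7 group means. The bars of Psmb9 and Psmb10 among the immunoproteasome genes and of Psme1 and Psme2 among the activators were long, and most bars of the core and regulatory particle were short.

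The promoters of the 4 genes with the widest changes are shown because the results turn on them. Each window runs 250 bases before to 50 bases after the RefSeq start (GRCm38.p6), reads 5′ to 3′ on the gene's own strand, and is in lower case with matches to any of 5 motifs in capitals. Psme2 has a pair of windows, of which the more upstream is shown.
Psmb9, chr17:34187281-34187580, minus strand: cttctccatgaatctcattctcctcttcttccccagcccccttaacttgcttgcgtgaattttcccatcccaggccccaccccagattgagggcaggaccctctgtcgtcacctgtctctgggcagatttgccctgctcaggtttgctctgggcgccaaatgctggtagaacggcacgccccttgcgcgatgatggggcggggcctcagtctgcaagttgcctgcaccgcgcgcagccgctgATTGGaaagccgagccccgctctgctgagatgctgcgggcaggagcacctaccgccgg
Psmb10, chr8:105938343-105938642, minus strand: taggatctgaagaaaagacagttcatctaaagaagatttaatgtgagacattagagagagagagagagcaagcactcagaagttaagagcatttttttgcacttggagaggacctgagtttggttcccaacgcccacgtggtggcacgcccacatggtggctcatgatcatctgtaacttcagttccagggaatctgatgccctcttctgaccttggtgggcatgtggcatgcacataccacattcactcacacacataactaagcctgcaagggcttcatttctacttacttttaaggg
Psme1, chr14:55578244-55578543, plus strand: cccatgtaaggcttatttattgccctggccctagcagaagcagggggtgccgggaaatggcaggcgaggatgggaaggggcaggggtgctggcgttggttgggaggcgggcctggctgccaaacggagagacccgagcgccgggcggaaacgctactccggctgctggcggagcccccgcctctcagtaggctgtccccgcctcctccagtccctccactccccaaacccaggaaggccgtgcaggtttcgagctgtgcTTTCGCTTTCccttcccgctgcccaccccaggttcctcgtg
Psme2, chr14:55591052-55591351, minus strand: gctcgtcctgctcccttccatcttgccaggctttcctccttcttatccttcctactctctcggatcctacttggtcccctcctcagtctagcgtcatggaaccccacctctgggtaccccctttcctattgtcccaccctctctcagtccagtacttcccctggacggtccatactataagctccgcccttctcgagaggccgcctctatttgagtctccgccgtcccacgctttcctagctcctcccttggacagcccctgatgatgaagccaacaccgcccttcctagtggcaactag

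The motifs were searched on both strands. The interferon-response type, GAAA, any 2 bases and GAAA, was found in 3.44% of 32851 mouse promoter windows and in 5 of 41 windows of proteasome genes (12.2%), those of Psme1, Psmb3, Psmd4, Psmd9 and Psmg4. In Psme1 it lies on the reverse strand just after the start. The other motifs were TTCNNNGAA (8.3% of all windows, 4.88% of proteasome windows), the antioxidant-response core TGACNNNGC (12.4% and 14.6%), the CCAAT box (37.4% and 31.7%) and the NF-kB type, GGGA, any 2 bases and TTCC (1.47% and 2.44%). No 2 of them overlap in the 4 windows printed. The single match in Psmb9 is a CCAAT box on the reverse strand, and no match was found in the windows printed for Psmb10 and Psme2, which says only that these letters are not there. The Psmb9 window shares 275 bases with that of Tap1, a peptide transporter subunit read from the opposite strand, whose start lies 226 bases from that of Psmb9.

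Genes were tested on log2(TPM + 1) with limma, and called at a Benjamini-Hochberg adjusted p below 0.05 over all tested genes. By an F test for any difference among the 7 groups, 30 of the 45 proteasome genes were called (66.7%), against 77.1% of all tested genes. Both immunoproteasome genes were called, with 3 of 4 activators, 9 of 14 genes of the constitutive core and 11 of 17 of the regulatory particle. The 5 highest F values belonged to Psme1 (39.9), Psme2 (23.1), Psmb9 (22.4), Psmd2 (19.6) and Psmb10 (14.3), and the lowest to Psma2 (0.457).

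**Figure D2:**
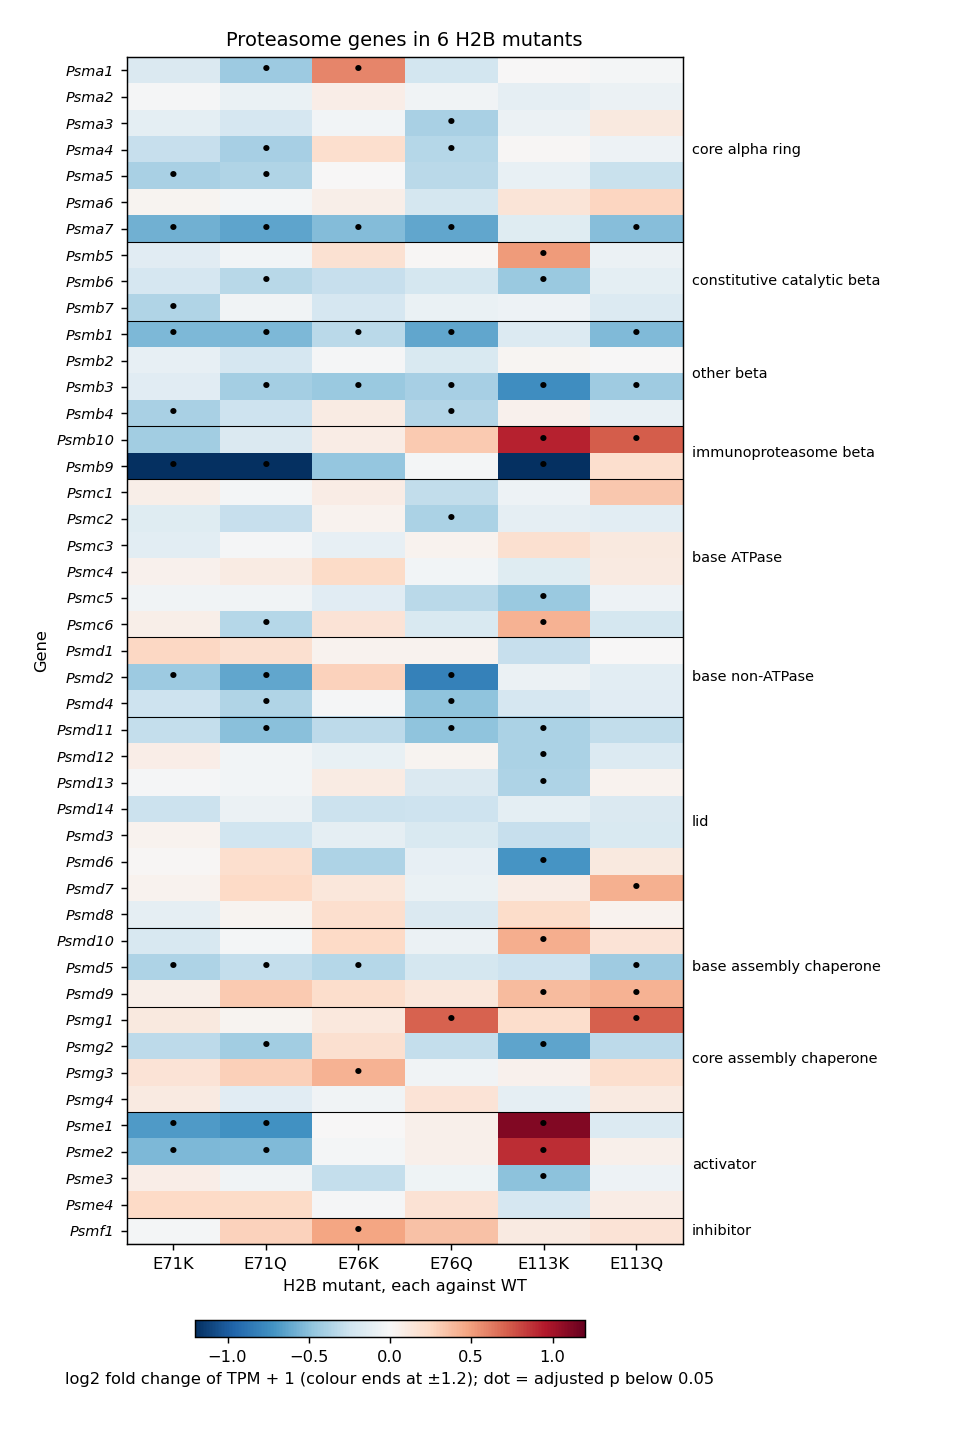
Log2 fold change of TPM + 1 of the 45 proteasome genes (rows, by role) in the 6 H2B mutants against WT (columns). Red is higher and blue lower in the mutant, colours end at ±1.2, and dots mark an adjusted p below 0.05; Psmb9 was blue in E71K, E71Q and E113K, and Psme1 and Psme2 were blue in E71K and E71Q and red in E113K.

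Against the shared WT libraries, lower calls outnumbered or equalled higher calls in every mutant when all 21 libraries were used. Without the 4 libraries that lay apart, however, E113Q had 7 higher and 5 lower calls. E76K had 3 higher and 2 lower calls without E76K replicate 1, and again without WT replicate 1. The share of all genes called in these 3 fits was 44.4%, 27.8% and 24.4%. The counts that follow are those with all libraries. In E71K no proteasome gene rose and 10 fell, where 12.5% of all tested genes rose and 14.2% fell (26.7% called in all). In E71Q none rose and 16 fell, against backgrounds of 20.7% higher and 23.5% lower (44.2%). E76K had 3 higher and 4 lower calls, where 23.5% and 9.67% of all genes were called (33.2%). E76Q had 1 higher and 10 lower calls, against 22% and 22.4% of all genes (44.3%). In E113K 7 rose and 10 fell, where 30.3% of all genes rose and 20.7% fell (51%). E113Q had 4 in each direction, against 17.9% higher and 12.7% lower (30.6%). The median log2 fold change of the 45 genes was -0.13 in E71K, -0.14 in E71Q, 0 in E76K, -0.17 in E76Q, -0.09 in E113K and -0.06 in E113Q, beside a median of all tested genes of 0, 0, 0.16, 0.02, 0.13 and 0.06 in the same order.

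These counts depended on how libraries were scaled. After a median-ratio rescaling the median of all genes was 0 to 0.02 in every mutant, so that it moved by over 0.1 in E76K and E113K, and the proteasome median lay between -0.12 (E71K) and -0.23 (E113K). Higher and lower calls were then 2 and 16 in E71K, 7 and 20 in E71Q, 2 and 15 in E76K, 3 and 18 in E76Q, 7 and 23 in E113K and 6 and 12 in E113Q, where the share of all genes called in either direction was 42.1%, 59.1%, 45%, 59.5%, 62.2% and 45.9%. With Mir6236 left out, E71K had 8 higher and 11 lower calls, E71Q 7 and 16, and E76Q 6 and 13, where 42.7%, 57.7% and 58% of all genes were called. Without WT replicate 3 E71K had 6 calls, E71Q had 9, E76K had 3 and E76Q had 7, where the share of all genes was 20.6%, 35.6%, 24.7% and 35.3%. E76K had 4 calls without WT replicate 2 or without E76K replicate 2, 2 without E76K replicate 3 and 13 without E71K replicate 2, while E76Q had 7 without WT replicate 1 or E76Q replicate 2, 6 without E76Q replicate 3 and 18 without E71K replicate 2. The share of all genes in these fits was 41.9% in E76K and 51.9% in E76Q without E71K replicate 2, and otherwise 23% to 27.7% in E76K and 35.7% to 36.8% in E76Q. Calls that held in all 31 alternative settings numbered 1 in E71K (Psmb9), 9 in E71Q, 2 in E76K, 6 in E76Q, 13 in E113K and 6 in E113Q. The like count over all tested genes was not made, so these numbers have no background and nothing is read from them.

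Among the immunoproteasome genes, Psmb9 fell in E71K, E71Q and E113K, while Psmb10 rose in both E113 mutants. Psmb9, which takes the place of Psmb6, had 6.50, 6.46 and 16.3 TPM in E71K, 8.45, 18.5 and 17.0 TPM in E71Q and 14.2, 14.3 and 13.5 TPM in E113K, against 41.6, 44.2 and 41.5 TPM in WT. All 9 of these mutant libraries lay below all WT libraries. The log2 fold change was -2.13 ± 0.28 (SE) in E71K (limma adjusted p = 1.24e-05), -1.54 ± 0.28 in E71Q (adjusted p = 0.000281) and -1.53 ± 0.28 in E113K (adjusted p = 0.000238). These 3 calls held in all 31 alternatives. The other mutants were not called: Psmb9 had 28.4, 30.8 and 32.2 TPM in E76K (adjusted p = 0.212), 42.0, 45.4 and 38.4 TPM in E76Q (adjusted p = 0.973) and 53.1, 58.7 and 37.5 TPM in E113Q (adjusted p = 0.621). E76K libraries all lay below WT, while those of E76Q and E113Q overlapped it. The 160 tested genes within 5 Mb of Psmb9 had median log2 fold changes of -0.36 in E71K, -0.46 in E71Q and -0.12 in E113K, so that Psmb9 lay 1.78, 1.08 and 1.41 below its neighbours.

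Psmb10, the counterpart of Psmb7, had 49.99, 44.9 and 47.6 TPM in E113K and 41.8, 38.4 and 44.2 TPM in E113Q, against 25.6, 22.98 and 25.1 TPM in WT. Neither E113 group overlapped WT. The log2 fold changes were 0.92 ± 0.18 in E113K (limma adjusted p = 0.000449) and 0.73 ± 0.18 in E113Q (adjusted p = 0.00508), and both calls held in all 31 alternatives. The 92 tested genes within 5 Mb of Psmb10 had medians of 0.29 in E113K and 0.38 in E113Q, and their part in the rise was not tested. No call was made in E71K (21.02, 11.9 and 23.3 TPM), E71Q (18.5, 24.2 and 22.7 TPM), E76K (28.0, 25.1 and 25.8 TPM) or E76Q (35.2, 32.4 and 25.2 TPM), where the adjusted p lay between 0.0966 and 0.719 and all 4 groups overlapped WT.

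Psmb8, which replaces Psmb5, was near 0 in most libraries and was too low to be tested. It had 1.86, 0.468 and 1.45 TPM in E113K and 2.61, 2.42 and 2.56 TPM in E113Q, against 0.254, 0.138 and 0.127 TPM in WT. Every E113 library thus lay above every WT library, and above the highest value in the other 4 mutants, 0.210 TPM in E76Q replicate 3. It was listed at 0 in all 3 E71Q libraries, in 2 of 3 E71K libraries and in 2 of 3 E76K libraries.

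**Figure D3:**
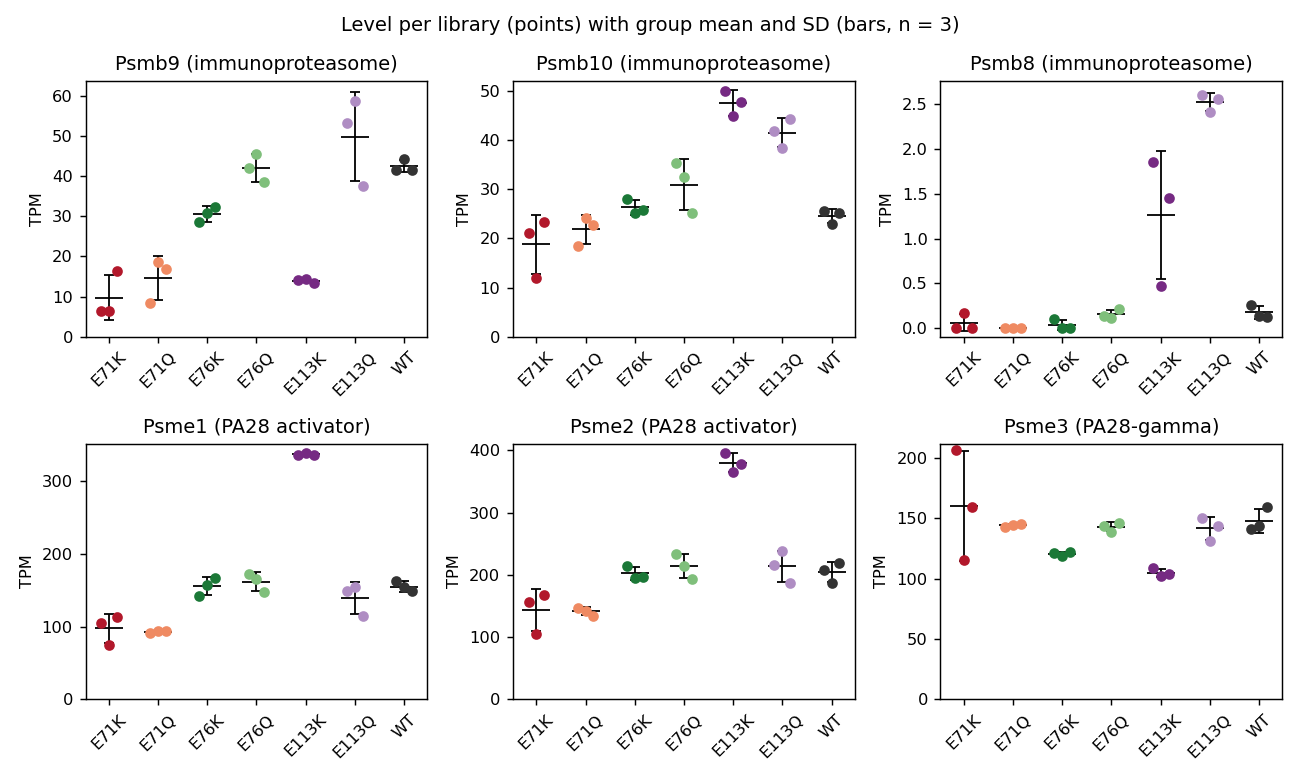
TPM of the immunoproteasome genes Psmb9, Psmb10 and Psmb8 and of the activator genes Psme1, Psme2 and Psme3 in each of 21 libraries (points), with the group mean and SD (black bars, n = 3). Psmb9 was 13.5 to 14.3 TPM in E113K and 41.5 to 44.2 TPM in WT, Psmb10 and Psmb8 were higher in both E113 mutants than in WT, and Psme1 was 335 to 338 TPM in E113K and 148 to 163 TPM in WT.

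Expressed per 100 TPM of the constitutive counterpart, the replacing subunits Psmb9, Psmb10 and Psmb8 stayed a minority in all groups. Psmb9 per 100 Psmb6 was 5.33 ± 3.22 (SD, n = 3 here and below) in E71K, 8.51 ± 2.73 in E71Q, 17.4 ± 1.76 in E76K, 22.8 ± 0.734 in E76Q, 8.97 ± 0.372 in E113K and 25.2 ± 4.65 in E113Q, against 20 ± 2.37 in WT. Without E71K replicate 3 the E71K mean was 3.52. Libraries of E71K, E71Q and E113K all lay below the lowest WT value, 18.1, and their highest was 10.7. Psmb10 per 100 Psmb7 was 14.8 ± 0.604 in E113K and 13.9 ± 1.94 in E113Q, against 7.35 ± 0.118 in WT, with no overlap. Psmb8 reached 1.29 ± 0.0567 per 100 Psmb5 in E113Q and 0.426 ± 0.235 in E113K, against 0.0826 ± 0.0286 in WT. A ratio within a library does not move with its scaling.

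**Figure D4:**
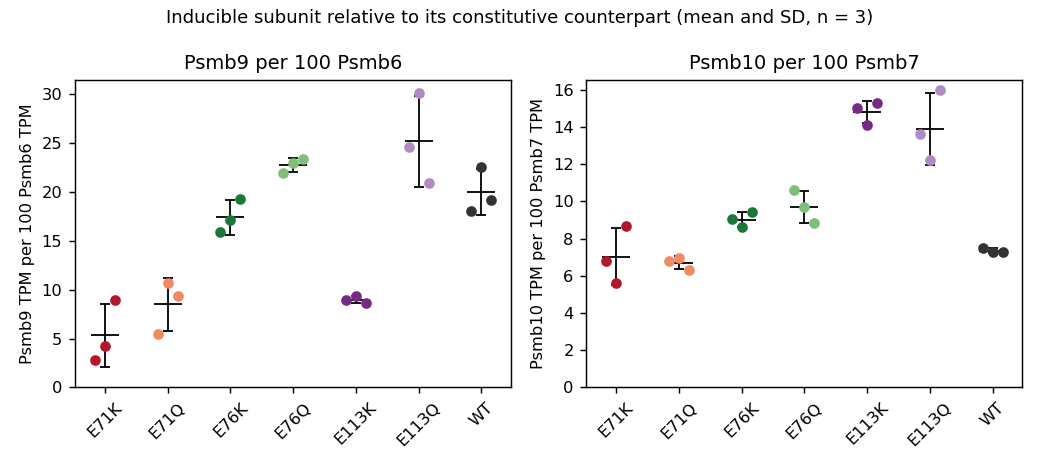
Psmb9 TPM per 100 TPM of Psmb6 (left) and Psmb10 TPM per 100 TPM of Psmb7 (right) in each library (points), with group mean and SD (black bars, n = 3). The Psmb9 ratio of E71K, E71Q and E113K libraries was at most 10.7, below the WT minimum of 18.1, and the Psmb10 ratio of E113K and E113Q libraries was at least 12.2, above the WT maximum of 7.48.

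The cap genes Psme1 and Psme2, whose products form the interferon-inducible PA28 ring together, fell in both E71 mutants and rose in E113K. Psme1 had 105, 74.6 and 112.9 TPM in E71K, 91.7, 93.8 and 94.2 TPM in E71Q and 335, 338 and 336 TPM in E113K, against 163, 154 and 148 TPM in WT. No library of these 3 mutants overlapped WT. The log2 fold change was -0.68 ± 0.14 (SE) in E71K (limma adjusted p = 0.00103), -0.73 ± 0.14 in E71Q (adjusted p = 0.000408) and 1.11 ± 0.14 in E113K (adjusted p = 4.67e-06). Psme2 had 157, 105 and 168 TPM in E71K, 147, 142 and 135 TPM in E71Q and 396, 365 and 379 TPM in E113K, against 208, 187 and 219 TPM in WT. It again separated from WT in all 3, with log2 fold changes of -0.54, -0.53 and 0.89, each ± 0.14 (adjusted p = 0.00775, 0.00572 and 6.44e-05). The E71Q and E113K calls of both genes held in all alternatives, whereas the E71K calls were lost in the fit of only the 6 libraries compared, with adjusted p = 0.0577 for Psme1 and 0.148 for Psme2. In E76K, E76Q and E113Q neither gene was called, and their log2 fold changes lay between -0.16 and 0.06. Reads of Psme2 may be shared with the similar gene Psme2b, which had 10.9 to 33.3 TPM, so the Psme2 values are uncertain to that extent.

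The other activators gave different values from this pair. Psme3, the nuclear PA28-gamma cap, had 109, 102 and 104 TPM in E113K, against 141, 144 and 159 TPM in WT. It fell by 0.49 on the log2 scale (SE 0.14, limma adjusted p = 0.0073), held that call in all alternatives, and was not called in the other mutants. Psme1 thus stood at 320 ± 11.5 TPM per 100 TPM of Psme3 in E113K (SD, n = 3), against 105 ± 11.2 in WT, while E71K had 62.1 ± 10.1 and E71Q 64.6 ± 0.255. Psme4 was not called anywhere; its group means ranged between 25.6 TPM in E113K and 35.7 TPM in E71K, against 29.5 TPM in WT. Its libraries ran from 23.8, 26.8 and 26.2 TPM in E113K up to 37.5, 26.8 and 42.7 TPM in E71K, beside 28.5, 28.8 and 31.3 TPM in WT.

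Psme1 and Psme2 lie 5.9 kb apart on chromosome 14, with Psmb5 964 kb away on one side, and all 3 rose in E113K together with the genes around them. The 104 tested neighbours within 5 Mb of Psme1 had a median log2 fold change of 0.82 in E113K against WT, and 67.3% of them were called higher, where 30.3% of all tested genes were. Psme1 stood 0.29 above that median and Psme2 0.07 above it. Psmb5, the chymotrypsin-like subunit, had a log2 fold change of 0.51, which was 0.37 below the median of its own 102 neighbours (0.87). Psmc6, an ATPase 10.2 Mb from Psme1, rose by 0.42 amid 36 neighbours with a median of 0.72. Psmd6 of the lid, 41.5 Mb from Psme1, fell by 0.71 amid 15 neighbours with a median of 0.00. Over blocks of 10 Mb the median in E113K was 0.38 to 0.89 in each block between 20 and 70 Mb, -0.25 in the next and -2.31 in the block at 120 Mb. In E71K and E71Q the neighbours of Psme1 had medians of 0.02 and 0.00, beside falls of Psme1 by 0.68 and 0.73. In E76K they had a median of 0.4, and 43.3% of them were called higher, where 23.5% of all genes were. Psme1 and Psme2 had log2 fold changes of 0 and -0.02 there. The medians of these neighbours in E76Q and E113Q were 0.18 and 0.16. This description was chosen after the values were seen, and the part of the region in the E113K rises was not tested.

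**Figure D5:**
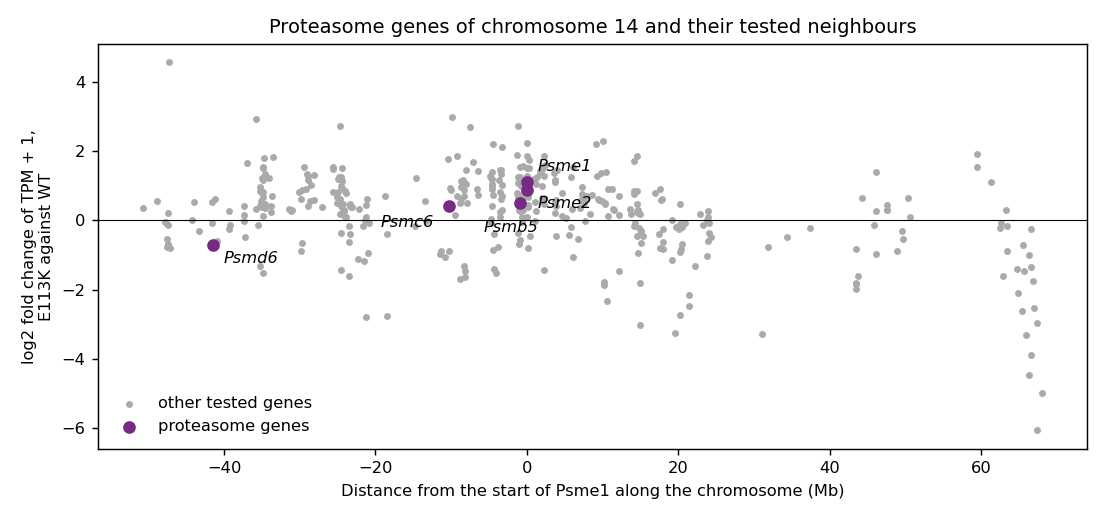
Log2 fold change of TPM + 1 in E113K against WT for tested genes of chromosome 14, plotted by distance from the start of Psme1 in Mb, with proteasome genes in purple and other genes in grey. Psme1, Psme2, Psmb5 and Psmc6 lie in a stretch where most genes were above 0, and Psmd6 lies outside it, below 0.

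In the constitutive core lower calls outnumbered higher ones in each mutant, but not always beyond the share of all genes: in E113K 2 of 14 fell (14.3%), where 20.7% of all tested genes did. The counts of higher and lower calls among the 14 genes were 0 and 5 in E71K, 0 and 7 in E71Q, 1 and 3 in E76K, 0 and 6 in E76Q, 1 and 2 in E113K and 0 and 3 in E113Q. As shares in the same order, 35.7%, 50%, 21.4%, 42.9%, 14.3% and 21.4% fell. Of all tested genes 14.2%, 23.5%, 9.67%, 22.4%, 20.7% and 12.7% did. Under either other scaling lower calls still outnumbered higher ones in every mutant, with at most 1 higher, 5 to 9 lower after rescaling and 3 to 7 lower with Mir6236 left out, settings in which 42.1% to 62.2% and 42.7% to 61.5% of all genes were called in either direction. The share of all genes called lower is not given for those settings, so these lower counts have no like background. Psma7, an alpha-ring subunit, had 295, 205 and 227 TPM in E71K, 208, 244 and 245 TPM in E71Q, 255, 264 and 232 TPM in E76K, 237, 239 and 223 TPM in E76Q, 317, 326 and 325 TPM in E113K and 271, 256 and 230 TPM in E113Q, against 381, 326 and 370 TPM in WT. Libraries of all 6 mutants lay below WT, those of E113K only just. It was called lower in the other 5 mutants, with log2 fold changes between -0.51 and -0.63. Psmb1 was likewise called lower in those 5 (-0.32 in E76K to -0.62 in E76Q) and not in E113K, where it had 461, 453 and 474 TPM, against 522, 490 and 541 TPM in WT. Its E76K call was lost in 21 of the 31 alternatives, among them without any single E76K or WT library.

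Psmb3, a further beta subunit without a cutting site, had 272, 267 and 265 TPM in E113K, against 462, 433 and 460 TPM in WT. Its log2 fold change there was -0.75 ± 0.12 (limma adjusted p = 5.5e-05), and it also fell in E71Q, E76K, E76Q and E113Q, by 0.40 to 0.45. The E76K call was lost without E76K replicate 3 (adjusted p = 0.0519) and the E76Q call without E76Q replicate 3 (adjusted p = 0.058). In E71K it had 502, 364 and 377 TPM and was not called. Psma1, an alpha-ring subunit, went the other way in E76K, with 263, 289 and 216 TPM, against 171, 159 and 176 TPM in WT. All E76K libraries exceeded WT, and the log2 fold change of 0.59 ± 0.14 (adjusted p = 0.00328) held in all alternatives. In E71Q, Psma1 fell by 0.44 (111, 126 and 136 TPM), a call lost without E71Q replicate 1 and without WT replicate 3.

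Each of the 3 constitutive cutting subunits was called in 1 or 2 mutants. Psmb5 had 312, 295 and 277 TPM in E113K, against 219.7, 199 and 201 TPM in WT, with no overlap (0.51 ± 0.13, limma adjusted p = 0.00445). It was not called in any other mutant. Psmb6, the caspase-like subunit, had 159, 153 and 157 TPM in E113K, against 229.8, 195 and 216 TPM in WT, and fell by 0.45 (adjusted p = 0.00779). Its fall by 0.33 in E71Q (155, 173 and 181 TPM, adjusted p = 0.0441) was lost in 13 of 31 alternatives, among them without E71Q replicate 1 or 2 and without WT replicate 1 or 3. Psmb7, the trypsin-like subunit, had 309, 212 and 269 TPM in E71K, against 342, 315 and 345 TPM in WT, a fall by 0.36 that just passed (adjusted p = 0.0489) and was lost in 22 of the 31 alternatives, among them without E71K replicate 2 or 3 and without any single WT library.

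The regulatory particle had no higher call in E71K, E71Q, E76K or E76Q and 1 in each E113 mutant, while 1, 4, 0, 4, 5 and 0 of its 17 genes fell in E71K, E71Q, E76K, E76Q, E113K and E113Q. As shares of the 17, 5.88%, 23.5%, 0%, 23.5%, 29.4% and 0% fell. Of all tested genes 14.2%, 23.5%, 9.67%, 22.4%, 20.7% and 12.7% did, so E71Q and E76Q lay near the background. The single rises were 5.88%, where 30.3% of all genes rose in E113K and 17.9% in E113Q. Scaling mattered here: after rescaling 12 genes fell in E113K and 7 in each E76 mutant, and with Mir6236 left out 4 rose and 1 fell in E71K and 2 rose and 1 fell in E113Q. The share of all genes called in either direction was 62.2% in E113K, 45% in E76K and 59.5% in E76Q after rescaling. With Mir6236 left out it was 42.7% in E71K and 44.6% in E113Q. Shares in each direction are not given for those settings, so these counts of rises and falls have no like background. Psmd2, a large scaffold of the base that docks ubiquitin shuttles, had 195, 136 and 165 TPM in E71K, 123, 152 and 160 TPM in E71Q and 121, 128 and 130.3 TPM in E76Q, against 222, 215 and 227 TPM in WT. These libraries all lay below WT, and the log2 fold changes were -0.44, -0.62 and -0.81, each ± 0.12 (limma adjusted p = 0.0119, 0.000573 and 4.92e-05). The E71K call was lost in the fit of only the 6 libraries compared (adjusted p = 0.182). Psmd2 was not called in E76K (279, 291 and 238 TPM), E113K (207, 209.6 and 214 TPM) or E113Q (201, 213 and 193 TPM).

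Psmd6 of the lid had 62.2, 61.4 and 62.7 TPM in E113K, against 102, 91.1 and 114 TPM in WT. It fell there by 0.71 (SE 0.14, limma adjusted p = 0.000629) and was not called in the other mutants, whose means ran between 79.0 TPM in E76K and 119 TPM in E71Q. Psmc6 had 182, 202 and 207 TPM in E113K, against 144, 138 and 158 TPM in WT, and rose by 0.42 (SE 0.13, adjusted p = 0.0118). The ubiquitin receptor Psmd4 fell by 0.36 in E71Q and 0.48 in E76Q, and the lid subunit Psmd11 by 0.50 in E71Q, 0.48 in E76Q and 0.38 in E113K. Without E113K replicate 1 the last of these had an adjusted p of 0.0599, and the Psmd4 call in E71Q was lost without E71Q replicate 1 and without WT replicate 3. The ATPase Psmc5 fell by 0.45 in E113K, and the lid subunit Psmd7 rose by 0.43 in E113Q, with an adjusted p of 0.0522 without WT replicate 2.

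Assembly chaperones did not move as a group. Psmg1, which pairs with Psmg2 to build the alpha ring, had 61.4, 62.5 and 58.4 TPM in E76Q and 55.3, 57.3 and 72.2 TPM in E113Q, against 36.8, 37.8 and 35.6 TPM in WT. The log2 fold changes of 0.71 and 0.72, each ± 0.17 (limma adjusted p = 0.0032 and 0.00437), held in all alternatives, beside medians of 0.22 and 0.38 over its 42 tested neighbours within 5 Mb. Psmg2 itself fell, with 34.5, 34.4 and 32.3 TPM in E113K and 32.5, 41.6 and 44.2 TPM in E71Q, against 52.3, 50.5 and 55.2 TPM in WT (-0.63 and -0.42, each ± 0.12, adjusted p = 0.00032 and 0.00818). No mutant had both partners called higher, although in E76K both lay above all WT libraries without a call (0.13 and 0.19, adjusted p = 0.584 and 0.222). Psmd10, a chaperone of the base also known as gankyrin, had 52.0, 53.3 and 53.3 TPM in E113K, against 39.6, 39.6 and 36.8 TPM in WT (0.44 ± 0.11, adjusted p = 0.0034). Another base chaperone, Psmd5, which holds the base apart from the core, fell in E71K, E71Q, E76K and E113Q by 0.29 to 0.43, and of these only the E113Q call held in all alternatives. Its E71K call was lost without E71K replicate 2 and without WT replicate 3, its E71Q call in 18 of the 31 alternatives, and its E76K call without any single E76K or WT library. Psmd9, the third, rose by 0.38 in E113K and 0.42 in E113Q, and each of these was lost in 6 of the 31 alternatives, which include leaving out any single mutant library or WT replicate 1 or 2.

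The inhibitor Psmf1 and the chaperone Psmg3 rose in E76K. Psmf1 had 20.3, 19.4 and 23.8 TPM in E76K, against 15.6, 15.2 and 14.1 TPM in WT, with no overlap (0.47 ± 0.14, limma adjusted p = 0.0192). That call was lost without E76K replicate 3 and without WT replicate 3, where the adjusted p rose as far as 0.0935. The rise of Psmg3 by 0.42 (adjusted p = 0.0304) lost its call after median-ratio rescaling, where it was 0.26, and without E76K replicate 2 or 3 or WT replicate 2 or 3.

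Lysine was then compared with glutamine at the same residue. Between the E71 mutants a single gene differed, the ATPase Psmc6, against a background of 25.1% of all genes called; it had 182, 126 and 157 TPM in E71K, against 97.5, 119 and 132 TPM in E71Q, with overlapping libraries (0.41 ± 0.13, limma adjusted p = 0.0289). This count depended on scaling and on single libraries. It was 10 after rescaling (4 higher and 6 lower in E71K) and 11 with Mir6236 left out (6 and 5). It was 8 without E71K replicate 2 (8 and 0) and 3 without E71K replicate 3 (1 and 2). Without E71Q replicate 1 it was 4 (0 and 4), and without E71Q replicate 2 it was 0. The share of all genes called in these 6 settings was 43.1%, 40.5%, 30.6%, 38.5%, 27.8% and 14.7% in the same order. The Psmc6 call itself was lost without E71K replicate 1, without E71Q replicate 1 or 2 and in the fit of only the 6 libraries compared. It was also lost without the 4 libraries that lay apart, where 0 genes were higher and 12 lower in E71K. In that fit 53.5% of all genes were called. The direction of the calls thus changed with the libraries kept. Psmb9 was not called in this comparison (-0.59, adjusted p = 0.131).

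Between the E76 mutants, 11 genes were higher and 1 lower in E76K than in E76Q, where 23.4% of all genes were called higher and 8.46% lower (31.9%). Psmd2 had the largest difference, with 279, 291 and 238 TPM in E76K, against 121, 128 and 130.3 TPM in E76Q (1.08 ± 0.12, limma adjusted p = 2.41e-06). Psma1 followed with 263, 289 and 216 TPM in E76K, against 152, 145 and 138 TPM in E76Q (0.81 ± 0.14, adjusted p = 0.000217). Neither gene's libraries overlapped between the substitutions. The alpha-ring subunit Psma4 (0.54), Psmg2 (0.48), Psmd4 (0.47) and the beta subunit Psmb4 (0.45) were also higher in all 31 alternatives, and Psmg1 was lower (-0.58, adjusted p = 0.0173), a call lost without E76K replicate 1 and without E76Q replicate 2. The median of all genes was 0.14, and 0 after rescaling, when the split was 11 higher and 11 lower, and with Mir6236 left out it was 16 and 10, where 43% and 41.3% of all genes were called in either direction. Without E76K replicate 1, E76Q replicate 1 or E76Q replicate 3 the number called was 7, where 22.9% to 24.2% of all genes were.

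Between the E113 mutants, 6 genes were higher and 9 lower in E113K than in E113Q, against 14.6% and 13.3% of all genes (28%). Psme1 had 335, 338 and 336 TPM in E113K, against 149, 155 and 114 TPM in E113Q (1.28 ± 0.14, limma adjusted p = 3.52e-06), and Psme2 differed by 0.83 (adjusted p = 0.000354). The immunoproteasome gene Psmb9 was lower, with 14.2, 14.3 and 13.5 TPM in E113K, against 53.1, 58.7 and 37.5 TPM in E113Q (-1.74 ± 0.28, adjusted p = 0.000227). The libraries of both substitutions did not overlap for any of these genes. Psmb10 was not called (0.19 ± 0.18, adjusted p = 0.462). Psmc6 (0.63) and Psmb5 (0.58) were higher and Psmd6 (-0.83) lower in E113K, and these 6 genes kept their calls in all alternatives. Of these genes, Psme1, Psme2, Psmb5 and Psmc6 lie in the raised stretch of chromosome 14. Tested genes within 5 Mb of Psme1, Psme2 or Psmb5 had a median of 0.64 here, and those around Psmc6 0.76. Between 62.5% and 66.7% of them were called higher, where 14.6% of all genes were. Relative to these medians Psme1 lay at 0.63, Psme2 at 0.19, Psmb5 at -0.06 and Psmc6 at -0.13. The part of the region was not tested. Psmg1 (-0.51) and Psme3 (-0.43) were also lower in E113K, and both calls were lost without any single E113K library. The number called was 24 after rescaling (7 higher and 17 lower), 25 with Mir6236 left out (7 and 18), 6 without E113K replicate 2 or 3, 7 without E113K replicate 1 or E113Q replicate 2 and 8 without E113Q replicate 1. The share of all genes was 43.5% after rescaling, 41.6% with Mir6236 left out and 19.6% to 21.8% in these fits without a library.

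Other genes of the pathways were counted from lists of known members, beside backgrounds of all tested genes of 12.5% higher and 14.2% lower in E71K, 20.7% and 23.5% in E71Q, 23.5% and 9.67% in E76K, 22% and 22.4% in E76Q, 30.3% and 20.7% in E113K, and 17.9% and 12.7% in E113Q. Nothing is read from a count near its background, and no list was tested as a set. Of 13 genes of MHC class I antigen processing, none rose and 9 fell in E71K, none rose and 7 fell in E71Q, 1 rose and 3 fell in E76K, 2 rose and 3 fell in E76Q, 3 rose and 4 fell in E113K, and none rose and 5 fell in E113Q. Their median log2 fold change was -1.08 in E71K, -0.67 in E71Q, -0.06 in E76K, -0.24 in E76Q, 0.22 in E113K and -0.47 in E113Q. In E71K the class I heavy chains H2-T23 (-2.84), H2-K1 (-2.83), H2-D1 (-2.40) and H2-M3 (-2.01) fell most, although members of this family share sequence and reads may be divided among them. Tap1, the neighbour of Psmb9, fell in E71K, E71Q and E113K. It had 11.8, 10.0 and 15.5 TPM in E71K, 11.7, 14.8 and 16.3 TPM in E71Q and 18.5, 16.9 and 18.3 TPM in E113K, against 26.0, 27.9 and 26.9 TPM in WT, with no overlap (-1.08, -0.89 and -0.56). The proliferation markers moved too: all 6 fell in E71Q and E113K, 3 fell in E76K, E76Q and E113Q, and 1 fell in E71K. Their summed level was 454 to 527 TPM in E71Q and 293 to 315 TPM in E113K, against 982 to 1110 TPM in WT, and their part in the proteasome differences was not tested.

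Against the same backgrounds, of 8 regulators of class I genes, 1 rose and 3 fell in E71K, 2 and 3 in E71Q, 2 and 1 in E76K, 2 and 1 in E76Q, 4 and 3 in E113K and 2 and 3 in E113Q. Their log2 fold changes ran from -1.28 to 0.8 in E71K, -1.63 to 0.72 in E71Q and -0.51 to 1 in E76K. In E76Q they ran from -0.56 to 1.92, in E113K from -0.69 to 1.18 and in E113Q from -0.67 to 1.2. Rises thus stood beside the falls named next. Nlrc5, the transactivator of class I genes, fell in E71K (-1.28), E71Q (-1.63), E76Q (-0.56), E113K (-0.69) and E113Q (-0.67), and had 1.99, 1.42 and 1.63 TPM in E71K, against 4.68, 5.84 and 6.04 TPM in WT. Irf1, an interferon-induced activator, fell in all mutants but E76Q, by 0.44 in E113Q to 1.01 in E71Q. Of 5 regulators of proteasome genes, 1 fell in E71K and 1 in E76Q, 2 rose in E76K, 2 in E113K and 1 in E113Q, and none was called in E71Q. Nfe2l2, the antioxidant-response factor, fell in E71K (38.7, 30.4 and 42.6 TPM) and rose in E113K (125, 128 and 144 TPM), against 89.4, 90.8 and 91.3 TPM in WT (-1.27 and 0.54, limma adjusted p = 2.96e-07 and 0.00144). Nfe2l1, which raises proteasome genes when the proteasome is blocked, was not called in any mutant.

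Among 21 proteasome-associated proteins and ubiquitin receptors, 2 rose and 2 fell in E71K, 3 and 4 in E71Q, 5 and 2 in E76K, 2 and 4 in E76Q, 7 and 5 in E113K and 4 and 3 in E113Q, which lies near the background in several mutants: 12.5% of all genes rose and 14.2% fell in E71K, and 23.5% and 9.67% in E76K. Usp14, a deubiquitinase of the regulatory particle, fell in all 6 mutants, by 0.60 in E71K and E113Q to 1.07 in E113K. It had 25.9, 28.5 and 31.9 TPM in E113K, against 59.8, 60.3 and 63.4 TPM in WT. Ubqln4, a shuttle that carries ubiquitinated proteins, also fell in all 6, by 0.51 in E71K to 1.34 in E76Q. The other deubiquitinase of this kind, Uchl5, fell in E113K (-0.98). Sem1, a small lid subunit outside the symbol rule, rose in E71K, E76K, E76Q and E113Q, with the largest value in E76K, where it had 1847, 1915 and 1784 TPM, against 875, 789 and 836 TPM in WT (1.15, limma adjusted p = 1.13e-05). Of 6 genes for ubiquitin and its activating enzymes, none was called in E71K, 2 fell in E71Q, 1 in E76K and 2 in E76Q, while 1 rose and 2 fell in E113K and 1 rose and 1 fell in E113Q. Uba6, an activating enzyme, fell in E71Q (-1.02), E76Q (-1.05) and E113Q (-0.76).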

How the data were processed

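The authors deposited TPM for 24091 genes in 21 libraries, and a table of group means that equalled the means of these values and was not used further. The submitters' processing notes name Salmon, featureCounts 1.4.4, DESeq and build mm10, without saying which made the TPM values. Per the labels' protocols, total RNA came from an RNeasy kit and the libraries from a NEBNext Ultra II kit. Counts were not used here, so no counting intervals are given.

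The 12192 genes averaging 1 TPM or more were analysed as log2(TPM + 1), a transformation of the deposited values, with limma 3.58.1 in R 4.3.3. A model of the 7 group means was fitted to all 21 libraries, and variances were moderated along a trend with level, on 14 residual and 3.19 prior degrees of freedom. The tests were 9 comparisons and an F test, adjusted by Benjamini-Hochberg within each. Overlap means that the ranges of the 3 libraries of 2 groups meet. Same-numbered libraries did not deviate together (correlations -0.17 to 0.42, medians between -0.02 and 0.01), so replicate numbers were not used as pairs.

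All members are accounted for; the text names the immunoproteasome, constitutive cutting and cap genes, the gene of highest F in each other class and the largest calls per comparison, with values per library for WT and mainly for the mutants in which a gene was called. The members and lists were chosen with earlier results of these data known. The model was tested on simulated data. Alternatives were pseudocounts of 0.1 and 5, other filters, rescaling by median ratios over the 8056 genes that exceeded 5 TPM in each library, Mir6236 left out, no trend, a replicate block, fits of the 6 libraries compared, and libraries left out; their use on the pathway lists was added after the data were seen. Gene positions are those of RefSeq (12181 of 12192 tested genes matched), and promoter windows of 38 of the 45 members come from RefSeq, build GRCm38.p6. Values of some genes of the pathway and marker lists are not reported here.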

Additional observations from a re-analysis of the deposited data

How the results depend on the processing

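The number of proteasome genes called depended on scaling and on single libraries. After median-ratio rescaling it was 18 in E71K, 27 in E71Q, 17 in E76K, 21 in E76Q, 30 in E113K and 18 in E113Q against WT, and 10, 22 and 24 between lysine and glutamine at E71, E76 and E113, where 42.1% to 62.2% of all genes were called. With Mir6236 left out it was 19 in E71K, 15 in E76K, 19 in E76Q and 14 in E113Q against WT, and 11, 26 and 25 at E71, E76 and E113, where 40.5% to 58% of all genes were called. Without the 4 libraries that lay apart it was 17 in E76Q against WT, 12 at E71 (0 higher and 12 lower) and 20 at E76. In these comparisons 59.9%, 53.5% and 49.4% of all genes were called. Fits of only the 6 libraries compared gave 1 in E71K, 16 in E76K, 26 in E76Q, 27 in E113K and 13 in E113Q against WT, and 0 and 24 at E71 and E76, where the share of all genes called was 13.7%, 51.8%, 69.7%, 74%, 41.3%, 4.81% and 46.5%. The causes of these shifts were not tested. Leaving out each library in turn gave 6 to 15 in E71K, 9 to 22 in E71Q, 2 to 13 in E76K, 6 to 18 in E76Q, 14 to 21 in E113K and 6 to 12 in E113Q against WT, 0 to 8, 7 to 18 and 6 to 20 at the 3 residues, and 22 to 38 by the F test. In the fits with the lowest and highest count, the share of all genes called was 20.6% and 26.8% in E71K. It was 35.6% and 51.6% in E71Q, 23% and 41.9% in E76K and 36.8% and 51.9% in E76Q. In E113K it was 42.7% to 43.8% and 57.9%, and in E113Q 23.5% and 39%. At the 3 residues it was 14.7% and 30.6%, 22.9% to 24.2% and 39.5%, and 19.6% to 20.1% and 36%. By the F test it was 72.8% and 85%. With replicate number as a replicate block the counts were 8, 13, 6, 11, 17 and 8 in E71K, E71Q, E76K, E76Q, E113K and E113Q. At the 3 residues they were 1, 11 and 15. The share of all genes called with this block was 27.8%, 45.5%, 34.8%, 45.9%, 51.9% and 32.4% against WT in the same order. It was 26.9%, 33.1% and 29.4% at the 3 residues. In 7 of 21 libraries the best correlated deviation in another group had the same number. A single value turned its sign while called: Psmg1 between E71K and E71Q was -0.29 (limma adjusted p = 0.0373) without the 4 libraries that lay apart, and 0.09 with them. The mean of Psmb9 per 100 Psmb6 in E71K was 3.52 without E71K replicate 3, against 5.33 with it. Depth is unknown, so the precision of low values such as those of Psmb8 cannot be given.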
